A study of Homo sapiens with 6 samples.

Results

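The 9 genes described here encode small GTPases of the RAS family: NRAS, HRAS, RRAS, RRAS2, MRAS, RIT1, RALA, RALB and RAP1A. They were chosen by symbol from the 60676 genes of the count table. The set was selected on the low NRAS values of the EHD1 knockdown libraries, so the values of all 9 in that comparison are a description. Which of them passed the adjusted p threshold is stated below but is not read as a test result. TC71 is a human Ewing sarcoma cell line. It carried a doxycycline-inducible lentiviral short hairpin RNA (shRNA), either non-targeting (shNTC) or against EHD1 (shEHD1), a membrane-remodelling ATPase of endocytic recycling. Both groups received 0.5 µg/ml doxycycline (Dox) for 3 days, so Dox is common to both and an uninduced group was not analysed here. The lines were selected as stable pools rather than single clones, and the sources used here do not say which EHD1 hairpin the libraries came from. There were 3 libraries of shNTC+Dox and 3 of shEHD1+Dox, and nothing in the labels says whether they came from separate cultures, so their spread may be technical.

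RAS proteins are molecular switches that are active when bound to GTP. Exchange factors load them with GTP downstream of receptor tyrosine kinases, GTPase activating proteins switch them off, and lipid groups anchor them to membranes. Active NRAS and HRAS engage RAF kinases and phosphoinositide 3-kinase. RALA and RALB act in part through the exocyst, and RAP1A acts mainly in adhesion and junctions. The predicted proteins had between 184 and 219 residues. HRAS was the closest to NRAS, with 85.2% identical residues, and the other 7 shared between 48.4% (RALB) and 55.4% (RRAS) with NRAS. RALA and RALB shared 82.9% with each other.

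The 3′ UTRs of 4 of the 9 genes held the 7-base word AAGCTCT, which was searched on the transcript strand because earlier results of these data had shown lower fold changes in genes that carry it. The windows below are shown because NRAS and RIT1, the members with lower values in every shEHD1 library, and RRAS and MRAS, which differ from them in direction or overlap, all hold the word. Each is the transcript strand of hg38, 5′ to 3′, with the word in capitals, read from the canonical transcript of GENCODE release 44.
NRAS (chr1:114707053-114707082, minus strand, last exon): tgtcataccagaAAGCTCTacatttgcaga
RIT1 (chr1:155898110-155898139, minus strand, last exon): tagctaatttatAAGCTCTaagtaatcagc
RRAS (chr19:49635531-49635560, minus strand, last exon): agcaaccaccacAAGCTCTcgggactagct
MRAS (chr3:138404133-138404162, plus strand, last exon): actaaaaggacaAAGCTCTtcccaatcctt
EHD1 coding sequence (chr11:64860017-64860046, minus strand, exon 3 of 5): cccgacaaccgcAAGCTCTttgaggccgag
EHD1 itself had the word once in its coding sequence and 0 times in its 3′ UTR. The next base was A in NRAS and RIT1, C in RRAS and T in MRAS and in EHD1. The 3′ UTRs of HRAS, RRAS2, RALA, RALB and RAP1A did not hold these letters.

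The libraries held between 22711235 and 30582187 counts. EHD1, the targeted gene, had 27.1, 28.0 and 26.4 CPM (counts scaled to a common library size) in the shNTC libraries and 7.55, 7.15 and 9.37 CPM in the shEHD1 libraries, a log2 fold change of -1.76 (SE 0.12, edgeR adjusted p = 0.000135). All CPM values were scaled by TMM, a method that evens out library composition. Of 16785 genes with enough counts to test, 2910 (17.3%) had an adjusted p under 0.05, 1441 (8.59%) higher and 1469 (8.75%) lower in shEHD1, and the median log2 fold change was 0.0008. All 8 Ewing sarcoma markers were tested, with summed levels between 2478 and 2727 CPM, of which CCND1 made 1086 to 1472 CPM. At an adjusted p under 0.05, 1 was higher (CD99, log2 fold change 0.33) and 1 lower (STEAP1, -0.43), or 25.0%. The leukocyte, epithelial and endothelial markers summed to at most 0.582, 0.418 and 0.105 CPM in a library, and of 5 muscle markers only MYH3 passed the count filter (log2 fold change -1.08). Replicate 3 of shNTC stood apart from the others of its group on the second principal component (-38.7 against 32.8 and 29.1). It held the lowest or highest control value for 7 of the 9 RAS family genes, all but NRAS and RAP1A. Among 3 values the lowest and highest leave only the middle value, so such a count is high for any library. Nothing is read from it.

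NRAS, which lies at chr1:114704469-114716771 on the minus strand of hg38 (ENSG00000213281), had the highest CPM of the 9 in the shNTC libraries and the fitted log2 fold change farthest from 0. In the shEHD1 libraries RAP1A had a higher mean (84.2 CPM). The shNTC libraries had 240.8, 264.2 and 261.2 CPM and the shEHD1 libraries 77.2, 86.5 and 80.5 CPM. The groups were far apart, and the highest shEHD1 library lay below every control. The means were 255 ± 12.7 and 81.4 ± 4.69 CPM (SD, n = 3 each), which left 31.9% of the control level. The log2 fold change was -1.65 (SE 0.07), or 3.14-fold lower. Leaving out any 1 library gave values between -1.69 and -1.61. These values rest on 5834 to 7315 counts per control library and 2116 to 2493 per shEHD1 library. Among the 2302 genes with a control mean of at least 100 CPM, NRAS had the lowest log2 fold change, followed by EXOC5 at -1.54 (SE 0.08). Over all 16785 genes tested, 135 had a lower value than NRAS. NRAS was chosen for its low shEHD1 values, and the 100 CPM limit used the control libraries alone. Both ranks are therefore a description, and nothing is read from them. In bulk RNA, fewer cells that express a gene and less RNA per cell cannot be told apart.

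HRAS, the other classical RAS gene of the set (chr11:532242-537321), did not follow NRAS. Its levels were 23.3, 26.8 and 34.0 CPM in shNTC and 28.1, 29.3 and 28.6 CPM in shEHD1. All 3 shEHD1 values lay inside the range of the controls. The log2 fold change was 0.04 (SE 0.13). It went from -0.08 without shNTC replicate 1 to 0.19 without shNTC replicate 3, so its sign rested on single control libraries. The exons of HRAS share 21 bases with another gene, while those of the other 8 share none.

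The R-RAS group, whose members regulate adhesion and cell shape as well as growth, did not move as a unit. RRAS (chr19:49635292-49640143) had 31.4, 32.4 and 20.1 CPM in shNTC and 25.1, 18.0 and 24.0 CPM in shEHD1. The ranges overlapped because shNTC replicate 3 was low. The log2 fold change of RRAS was -0.32 (SE 0.20), and -0.51 without that library. RRAS2, also called TC21 (chr11:14277922-14364506), had 26.8, 28.3 and 32.9 CPM against 32.8, 31.9 and 31.6 CPM, with a log2 fold change of 0.13 (SE 0.09) and overlapping groups. MRAS, which together with SHOC2 and PP1 promotes RAF activation (chr3:138347648-138405534), was the scarcest of the 9. It had 2.09, 1.52 and 1.16 CPM in shNTC and 4.42, 3.60 and 3.33 CPM in shEHD1. Every shEHD1 library exceeded every control, and the log2 fold change was 1.24 (SE 0.26), or 2.37-fold higher. MRAS rested on 26 to 55 counts per control library and 88 to 126 per shEHD1 library, and its log2 fold change ranged from 1.07 to 1.49 when 1 library was left out.

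RIT1, a RAS-like GTPase that signals to MAP kinases (chr1:155897808-155911404), was the other gene with lower values in all shEHD1 libraries. It had 23.0, 22.9 and 21.4 CPM in shNTC and 13.1, 13.9 and 15.8 CPM in shEHD1. The groups did not overlap. The log2 fold change of RIT1 was -0.65 (SE 0.11), or 1.57-fold lower, less than the difference of NRAS.

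RALA, RALB and RAP1A were each somewhat higher in the shEHD1 libraries. RALA (chr7:39623565-39708120) had 47.1, 48.6 and 52.4 CPM in shNTC and 62.0, 69.7 and 59.0 CPM in shEHD1, a log2 fold change of 0.36 (SE 0.08). RALB (chr2:120240064-120294710) had 68.2, 68.0 and 52.4 CPM against 85.4, 73.2 and 79.6 CPM, a log2 fold change of 0.34 (SE 0.11). For both genes the lowest shEHD1 library lay above the highest control. RAP1A (chr1:111542218-111716691) had 69.9, 73.5 and 72.1 CPM against 85.1, 88.3 and 79.2 CPM, a log2 fold change of 0.23 (SE 0.07), again without overlap. RALB depended most on 1 library, with 0.22 when shNTC replicate 3, the low control, was left out.

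**Figure D1:**
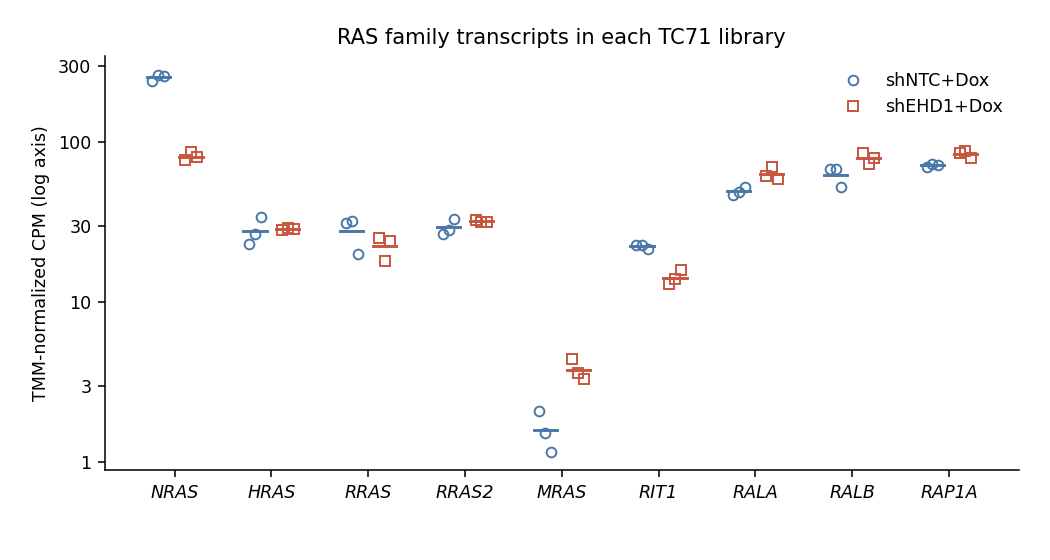
TMM-normalized CPM (log axis) of the 9 RAS family genes in each library, with shNTC+Dox as circles, shEHD1+Dox as squares and the group mean as a line (n = 3 each). NRAS lies near 255 CPM in the controls and 81.4 CPM in the knockdown, RIT1 is lower and MRAS, RALA, RALB and RAP1A are higher without overlap, and the groups overlap for HRAS, RRAS and RRAS2.

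All 9 genes passed the count filter. Of these, 4 had an adjusted p under 0.05 (17.3% of all genes tested did): NRAS and RIT1 on the lower side (8.75% of all genes), MRAS and RALA on the higher side (8.59%). RALA stopped passing in 4 of the 6 fits that left out 1 library (shNTC replicate 1 or 2, shEHD1 replicate 1 or 2, with log2 fold changes of 0.33, 0.35, 0.38 and 0.29), and MRAS in 1 (shEHD1 replicate 1, 1.12). Only NRAS and MRAS also had a difference of at least 2-fold, against 2.82% of all genes. The groups did not overlap for 6 of the 9, against 39.3% of all genes. Nothing is read from these counts, or from which members passed in which fit, since the set was chosen on this comparison. The sign of the fitted difference was negative for 3 and positive for 6.

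**Figure D2:**
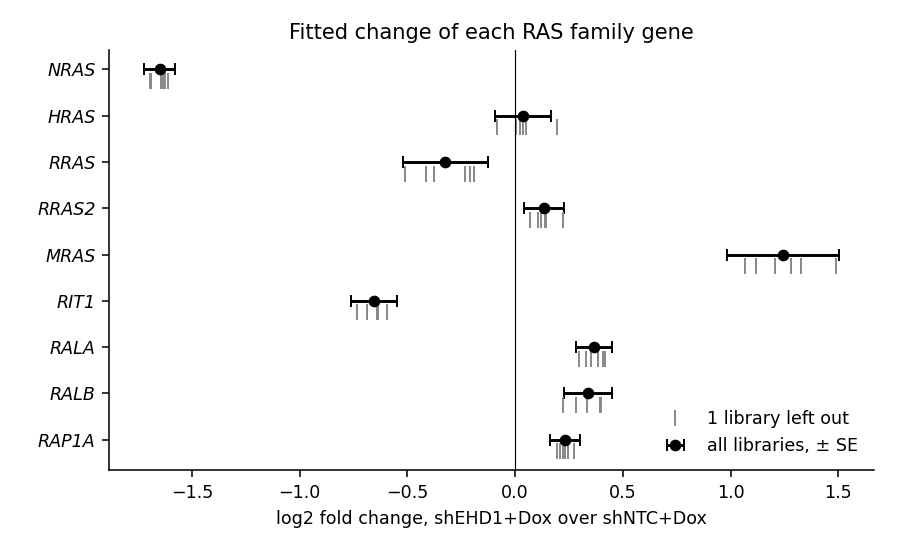
Fitted log2 fold change (shEHD1+Dox over shNTC+Dox) of each RAS family gene with its SE as black points, and the value with each of the 6 libraries left out in turn as grey ticks. The NRAS ticks span -1.69 to -1.61, whereas those of HRAS lie on both sides of 0.

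Levels of different genes were compared as CPM per kilobase of exon. In the shNTC libraries NRAS had the highest level, 59.0 ± 2.95 CPM per kb, 2.32 times that of RRAS, the next gene. RRAS (25.4) and RALB (21.9) followed with overlapping ranges, then RALA (13.8), RAP1A (13.0) and HRAS (11.5), where each pair of neighbours also overlapped. RRAS2 (8.49), RIT1 (5.55) and MRAS (0.254 CPM per kb) came last and were separate from one another and from HRAS. In the shEHD1 libraries RALB led with 27.7 CPM per kb, and NRAS, at 18.8 ± 1.09, overlapped both RRAS (20.3) and RALA (17.8). The order from RAP1A (15.2) through HRAS (11.8), RRAS2 (9.30) and RIT1 (3.53) to MRAS (0.605) was as in the controls, now without overlap.

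NRAS made up 35.4%, 36.8% and 39.3% of the summed level per kilobase of the 9 genes in the shNTC libraries and 13.9%, 16.3% and 15.0% in the shEHD1 libraries. The mean share was 37.2 ± 1.97% against 15.1 ± 1.19% (SD, n = 3). The sum of the 9 was 159 ± 6.48 in shNTC and 125 ± 2.83 CPM per kb in shEHD1. Without NRAS the sums were 99.9 ± 6.07 and 106 ± 3.86 CPM per kb, a gap far smaller than the NRAS difference. With the length of the longest coding transcript instead of all exons, NRAS was still the highest in shNTC and ranked 5 of 9 in shEHD1, behind RALB, RALA, HRAS and RRAS.

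**Figure D3:**
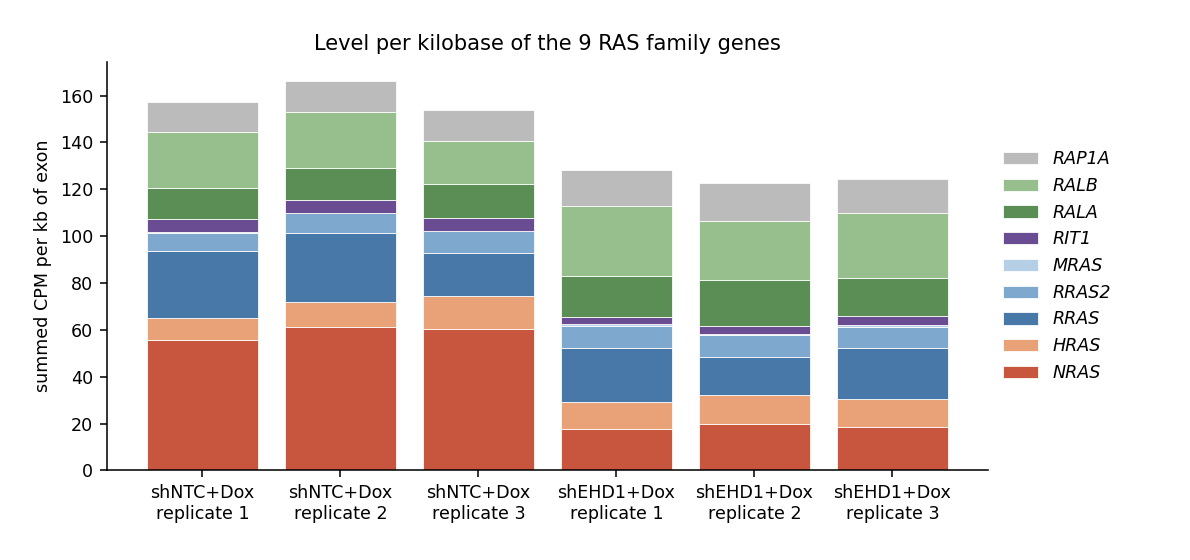
Stacked CPM per kilobase of exon of the 9 RAS family genes in each library, with 1 bar per library and 1 colour per gene. The NRAS segment takes 35.4% to 39.3% of the bar in shNTC+Dox and 13.9% to 16.3% in shEHD1+Dox, while the other 8 sum to 99.9 and 106 CPM per kb on average.

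The genes beside NRAS on chromosome 1 were examined to describe the surrounding region. Of 10 listed neighbours, 5 had enough counts to test and 1 of these was called, against 17.3% of all genes. With 5 genes tested, 1 call cannot show whether calls were more frequent in this region than among all genes. SIKE1, a suppressor of the kinase IKBKE whose start site lies 63.9 kb away, fell by 0.35 on the log2 scale (SE 0.08, edgeR adjusted p = 0.0193). This call was lost when shNTC replicate 1, shNTC replicate 2, shEHD1 replicate 1 or shEHD1 replicate 3 was left out. DENND2C (0.03, SE 0.11), BCAS2 (-0.03, SE 0.12) and TRIM33 (-0.02, SE 0.09), on the other side of NRAS, had log2 fold changes near 0 with edgeR adjusted p of 0.901, 0.878 and 0.878. The fold change of NRAS was far outside the range of these 4 genes.

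**Figure D4:**
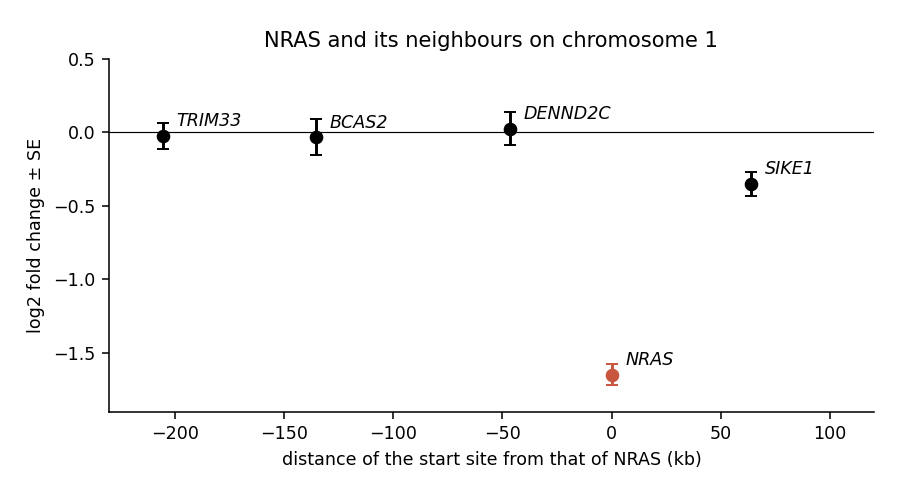
Log2 fold change with its SE of NRAS and 4 of its tested neighbours, against the distance of their start sites from that of NRAS in kilobases. NRAS is at -1.65, SIKE1 at -0.35 and the other 3 genes lie between -0.03 and 0.03.

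The 5 genes whose log2 CPM profiles over the 6 libraries were nearest to that of NRAS, after each gene was centred on its mean, were EXOC5, MAGEA12, OSTM1, FAM49A and CACNA1G. Their root mean square differences from NRAS were 0.0752, 0.0867, 0.106, 0.108 and 0.115 log2 units. EXOC5, a subunit of the exocyst, had 108, 109 and 120 CPM in shNTC and 36.1, 42.2 and 38.0 CPM in shEHD1. The profiles mirror the same group difference and carry no further information on NRAS. The 3′ UTRs of EXOC5 and OSTM1 held the word AAGCTCT, and those of the other 3 did not. MAGEA12 has near-identical relatives, so its counts are less certain.

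A 3′ UTR of 50 bases or more was annotated for 12946 tested genes, and 14.0% of these held the word. Their median log2 fold change was -0.07, against 0.02 for the 11132 genes without it, and 59.3% against 46.7% of the values were below 0. When the word was followed by A, as in NRAS and RIT1 (337 genes, AAGCTCTA), the median was -0.11. Of these, 28.5% were called lower and 5.93% higher. When another base followed, as in RRAS and MRAS (1477 genes), the median was -0.07, with 17.8% called lower and 7.45% higher. Among genes without the word 8.16% were called lower and 11.2% higher. The split by the next base was chosen after the members' sites were seen, and the 3′ UTR length differs between such groups. Among 3′ UTRs within 20% of the NRAS length 26.6% held the word, and the shares were 19.5% for RIT1, 23.6% for MRAS and 2.60% for RRAS. The median log2 fold changes with and without the word were -0.07 and 0.05 in the NRAS window and -0.07 and 0.04 for RIT1. They were -0.08 and 0.05 for MRAS and -0.04 and 0.02 for RRAS. The word was picked from these same data, so these shares and medians are a description, and its part in the NRAS, RIT1, RRAS and MRAS values was not tested.

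The pathway around RAS was followed on 8 lists with 135 genes, of which 107 were tested. Of these, 24 (22.4%) were called, against 17.3% of all genes. The 15 called higher made 14.0% (8.59% of all genes) and the 9 called lower 8.41% (8.75% of all genes), with a median log2 fold change of 0.04. The split by direction depended on the libraries: leaving out shEHD1 replicate 1, 2 or 3 gave 3 higher and 4 lower, 7 and 9, and 5 and 5. Leaving out shNTC replicate 1, 2 or 3 gave 7 higher and 4 lower, 8 and 6, and 17 and 16. The sizes were modest, with 1 gene, SPRY4, called at 2-fold or more. Leaving out 1 library gave between 7 calls (without shEHD1 replicate 1) and 33 (without shNTC replicate 3), with 10 without shEHD1 replicate 3, 11 without shNTC replicate 1 and 14 without shNTC replicate 2. Of the called genes named below, SIPA1L3, PGGT1B, SHC1, SPRY4, PHLDA1, AFDN and PIK3CB kept an edgeR adjusted p under 0.05 whichever library was left out, and each of the others lost it at least once.

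Among 14 tested further GTPases of the family, 1 rose and 1 fell (14.3% called, against 17.3% of all genes, median log2 fold change -0.02). GEM, a GTPase that regulates calcium channels, rose by 0.70 on the log2 scale (edgeR adjusted p = 0.033) from 2.55, 2.93 and 2.64 CPM to 4.71, 3.80 and 4.65 CPM. RASL10B fell by 0.33 on the log2 scale (edgeR adjusted p = 0.035).

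Regulators of the GTPase cycle gave 8 higher and 1 lower call with all libraries (8.59% and 8.75% of all genes). There were only 1 higher and 0 lower without shEHD1 replicate 1, and 2 and 1 without shEHD1 replicate 3. Leaving out shEHD1 replicate 2, shNTC replicate 1 or shNTC replicate 2 gave 3 higher with 0 or 1 lower. Without shNTC replicate 3 the calls were 8 higher and 2 lower. Of 13 exchange factors, 4 rose and 1 fell (38.5% called, against 17.3% of all genes, median 0.06). RAPGEF3, which encodes the cAMP-activated RAP exchange factor EPAC1, had the largest log2 fold change of these, 0.82 (edgeR adjusted p = 0.028), followed by RGL2, a RAL exchange factor, at 0.50 (edgeR adjusted p = 0.0421). SOS2, a RAS exchange factor recruited through GRB2, rose from 39.9, 45.3 and 42.0 CPM to 54.2, 54.5 and 49.7 CPM, or by 0.32 on the log2 scale (edgeR adjusted p = 0.0267). RAPGEF2, another RAP exchange factor, fell by 0.40 on the log2 scale (edgeR adjusted p = 0.0139). Of 16 GTPase activating proteins, 4 rose and none fell (25.0% called, against 17.3% of all genes, median 0.21). The RAP-directed SIPA1L3 went from 15.0, 13.9 and 13.2 CPM to 21.2, 20.8 and 21.1 CPM, a log2 fold change of 0.59 (SE 0.10, edgeR adjusted p = 0.00494). The RAS-directed RASA3 (0.59), RASA2 (0.41) and RASA1 (0.26) had edgeR adjusted p of 0.0182, 0.0293 and 0.0441. The other 12 did not pass the test.

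Genes for the lipid processing and membrane delivery of RAS gave 3 lower calls and 0 higher among 13 tested (median -0.15). This was 23.1% called, against 17.3% of all genes. PGGT1B, the beta subunit of the enzyme that prenylates RAL and RAP proteins, fell from 27.1, 27.1 and 31.3 CPM to 17.7, 21.4 and 18.1 CPM, or by 0.58 on the log2 scale (SE 0.11, edgeR adjusted p = 0.00824). ABHD17A, which removes palmitate from NRAS, fell by 0.31 on the log2 scale (edgeR adjusted p = 0.0323). ZDHHC9, part of the palmitoyltransferase of HRAS and NRAS, fell by 0.29 (edgeR adjusted p = 0.0245). Of the fits that left out 1 library, ABHD17A and ZDHHC9 passed only in that without shNTC replicate 3. Among 9 receptor adaptors, SHC1 fell by 0.44 on the log2 scale (edgeR adjusted p = 0.00394) and GAB1 rose by 0.44 (edgeR adjusted p = 0.0373). Of the adaptors, 22.2% were called, against 17.3% of all genes. SHC1, which couples receptor tyrosine kinases to GRB2 and SOS, was abundant, with 346, 340 and 325 CPM in shNTC and 254, 233 and 260 CPM in shEHD1.

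None of the 11 tested genes of the RAF-MEK-ERK cascade was called by edgeR or by DESeq2 (median log2 fold change -0.02), and 3, among them RPS6KA3 and SHOC2, had an unadjusted p under 0.05.

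Genes for feedback on ERK and its immediate targets serve as a transcriptional readout of the cascade. In edgeR they went both ways, with 2 rises and 2 falls among 17 tested (23.5% called, against 17.3% of all genes, median 0.04). Under DESeq2 7 of the 17 passed, with DUSP5 (edgeR log2 fold change 0.66), DUSP6 (-0.60) and CCND1 (-0.22) in addition. DESeq2 also called more genes in all, 3622 against 2910 in edgeR, so the 17.3% is not its background. SPRY4, a feedback inhibitor of RAS signalling, fell by 2.10 on the log2 scale (SE 0.36, edgeR adjusted p = 0.00582). It had 3.84, 3.00 and 3.85 CPM in shNTC and 1.09, 1.02 and 0.388 CPM in shEHD1, so its groups were well separated at a low level. SPRED2, which also restrains RAS, fell by 0.38 (edgeR adjusted p = 0.0219). PHLDA1 rose by 0.87 on the log2 scale (edgeR adjusted p = 0.00443) and the SPRY4 relative SPRY2 by 0.54 (edgeR adjusted p = 0.0473). SPRY1, a further Sprouty gene, was not called and had a log2 fold change of 0.47. The 3′ UTR of SPRY4 held the word followed by A, as those of NRAS and RIT1 did.

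Of 14 other effectors of RAS, RAL and RAP, 3 rose and 1 fell (28.6% called, against 17.3% of all genes, median 0.20). AFDN, the junction protein afadin that binds RAS and RAP, fell from 151, 146 and 149 CPM to 116, 115 and 110 CPM, or by 0.39 on the log2 scale (SE 0.06, edgeR adjusted p = 0.00407). The catalytic subunit genes PIK3CB and PIK3CA rose by log2 fold changes of 0.36 and 0.35 (edgeR adjusted p = 0.0118 and 0.0165). The exons of RAPGEF3, RGL2, RASA1, PGGT1B, SHC1, PHLDA1 and PIK3CA share between 166 and 3403 bases with other genes, so some of their reads could belong to a partner. Of the 107 tested pathway genes 17 (15.9%) held the word in their 3′ UTR, among them 3 of the 9 that fell (SPRY4, PGGT1B and ZDHHC9) and 1 of the 15 that rose (RAPGEF3). The word was picked from these same data for the lower values of its carriers, and it is more frequent in longer 3′ UTRs. These counts are a description, and the part of the word in these values was not tested.

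**Figure D5:**
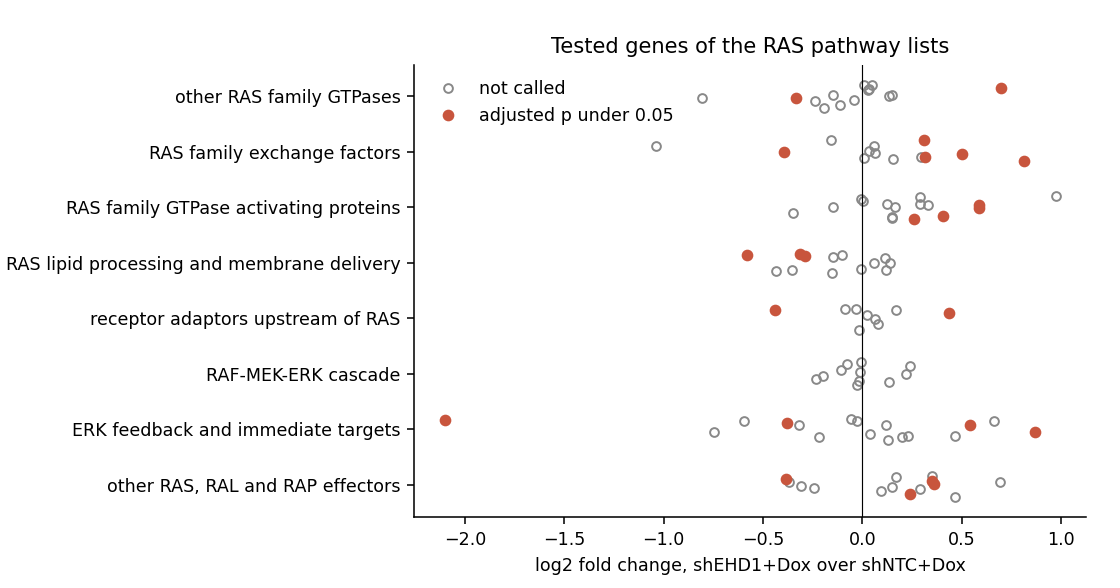
Log2 fold change (shEHD1+Dox over shNTC+Dox) of the 107 tested genes of the 8 RAS pathway lists, 1 point per gene, filled where the edgeR adjusted p was under 0.05; the vertical scatter within a row carries no value. SPRY4 at -2.10 lies apart from the rest, and none of the 11 RAF-MEK-ERK genes is filled.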

How the data were processed

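RNA from TC71 cells was made into TruSeq RNA v2 libraries, a kit that does not mark strand, and sequenced as paired reads. The deposited table holds raw counts per gene that the authors made on hg38. Their processing notes name STAR 2.7.3a and DESeq2, whereas the study's methods name hisat2 and StringTie; how the gene counts were derived is not given in the sources used here. Genes reaching 10 counts in 3 or more libraries were tested with edgeR 4.0.16 (TMM, robust quasi-likelihood fit, Benjamini-Hochberg adjustment) in R 4.3.3; SE is the absolute log2 fold change divided by the square root of F. DESeq2 1.42.0 (Wald test) was an alternative, and the scripts were tested on simulated data. CPM of low genes is limited by counting error.

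Library totals were 26528902, 28203023 and 22711235 (shNTC) and 28157184, 24150135 and 30582187 (shEHD1). Exon lengths, 3′ UTRs and coding sequences came from GENCODE release 44, which held 99.5% of the identifiers.

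The members and lists were chosen with earlier results of these data known. Named genes were the 9 members, EHD1, tested neighbours, the 5 nearest profiles and, per pathway list, up to 4 called genes of at least 1 CPM with the largest change, or the 2 most abundant where fewer than 2 passed. RPS6KA3, SHOC2, SPRY1, DUSP5, DUSP6, CCND1, CD99 and STEAP1 were named after their values were seen. Results for some genes that this rule selects are not reported here.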

Additional observations from a re-analysis of the deposited data

How the results depend on the processing

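With DESeq2 size factors, other count filters or DESeq2's own test, the calls on NRAS neighbours and pathway lists stayed within 1.5 times of those reported. In these settings no tested gene that the naming rule selects changed sign. Without a count filter RASL10B, ABHD17A and SPRY2 lost their calls. Leaving out 1 library at a time gave 1322 to 3616 genes called, 293 to 452 at 2-fold or more, 7 to 33 pathway genes (7 without shEHD1 replicate 1) and 0 to 1 neighbours. HRAS changed sign without shNTC replicate 1 (-0.08). The neighbours DENND2C, BCAS2 and TRIM33, all near 0, also changed sign in such fits. DENND2C went to -0.03 without shEHD1 replicate 2, BCAS2 to 0.09 without shNTC replicate 3 and TRIM33 to 0.04 without shEHD1 replicate 1. MRAS no longer passed without shEHD1 replicate 1. RALA no longer passed without replicate 1 or 2 of either group or with the replicate block. RRAS and RAP1A passed without shNTC replicate 3, RAP1A also with 10 counts required in every library, and RALB and RAP1A under DESeq2. Nothing is read from these calls on members.

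Samples with the same replicate number did not deviate together (correlations of -0.059 to 0.072). With the replicate block 1766 genes and 12 pathway genes (6 higher, 6 lower; 1 and 1 among exchange factors and GTPase activating proteins) were called, 12 calls among the 36 tested genes that the naming rule selects were lost and the NRAS log2 fold change was -1.65. The share of NRAS became 31.3% and 11.9% with the longest coding transcript as gene length, and 46.5% and 19.9% without length.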
